A study of Mus musculus with 6 samples.

Results

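The meiotic chromosome genes described here are 10 genes whose products build, pair and recombine chromosomes in germ cells: Sycp1, Sycp2, Sycp3, Syce1, Hormad1, Stag3, Smc1b, Rec8, Dmc1 and Spo11. They were chosen by name, out of 21951 protein-coding genes of the mouse annotation. The rule uses no methylation value, but the genes were named with earlier results of these data known. For each gene, CpG cytosines read at least 6 times in all 6 libraries were taken from the promoter, which runs from 1000 bp before the annotated 5′ end to 500 bp after it, and from the rest of the gene body. There were 91 such cytosines in promoters and 42 in bodies. Of the 10 genes, 7 had a promoter cytosine, 6 had the minimum of 3 needed for a test, and 7 had a testable body. Dmc1 had neither.

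In meiosis each chromosome is folded along a protein axis, held together by cohesin complexes that contain subunits found only in germ cells, and the axes of homologous chromosomes are joined along their length by the synaptonemal complex while programmed DNA breaks are made and repaired. Somatic tissues do not use this machinery, and many of its genes are repressed there by DNA methylation of the CpG-rich sequence around their 5′ ends. Uhrf1 recognises hemimethylated DNA behind the replication fork and brings the maintenance methyltransferase Dnmt1 to it, so that methylation is copied on to the new strand at each cell division.

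Methylation was measured in the full cortex of C57BL/6 embryos at embryonic day 16 by oxidative reduced representation bisulfite sequencing, in which MspI cuts DNA at CCGG and 5-hydroxymethylcytosine is oxidised so that only 5-methylcytosine is read as C. The 3 cKO libraries carry the genotype Uhrf1 -/- and the 3 control libraries Uhrf1 +/-, so the controls also have only 1 working allele, and the study made the deletion with Emx1-Cre, a driver of the dorsal telencephalon, in both groups. Cells of the cortex that never expressed Cre keep the gene, and their share was not measured here. A methylation level is the percent of reads with C in a whole tissue, so loss in some cells and partial loss in every cell cannot be told apart. It is not given whether a library is 1 embryo or a pool, so a p-value covers no more than the spread among these 6 libraries, which may be technical.

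The libraries held 22495858 to 31019082 reads over listed cytosines in cKOs and 18238737 to 22212920 in controls. Over the 646645 nuclear CpG cytosines read in all libraries, the mean level was 19.6%, 19.4% and 15.8% in cKO replicates 1, 2 and 3, against 39.4% and 38.9% in control replicates 2 and 3. The remaining control library, labelled replicate 1, stood at 15.6%, which goes against its label. Called the discordant control from here on, it stays a control in the test of all 6 libraries, and tests are given with and without it. Leaving it out is a choice made on the outcome, and q-values without it depend on that choice. Below, the share left is the mean of the cKO libraries divided by the mean of control replicates 2 and 3. A feature was called when its Benjamini-Hochberg q was under 0.01 over all features of its kind and the group means differed by at least 25 points, in a moderated quasi-binomial test. The 95% Wilson intervals of a single library were from 1.02 to 22.0 points wide at the promoters and from 5.57 to 34.0 points wide at the bodies. They cover counting error only, and the widest at bodies belonged to Smc1b with 29 reads in 1 library. Read counts of a promoter, body or stretch are summed over its cytosines, so a read spanning more than 1 cytosine counts at each. The 29 reads were 10, 10 and 9 at neighbouring cytosines. The intervals take such counts as independent, so they are too narrow where reads are shared.

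With all 6 libraries no promoter or body of these genes was called. Without the discordant control, 4 of the 7 bodies, those of Sycp1, Syce1, Stag3 and Rec8, were called lower in cKOs, with differences of -36.5 to -47.7 points, against 57.7% of bodies over all genes. No promoter of the 10 genes was called then, against 0.806% over all genes, but with autosomes alone in that fit the Sycp3 promoter was, as were 52.4% of all promoters at 25% or more in control replicates 2 and 3. The promoters of Sycp1 and Smc1b overlapped between cKOs and control replicates 2 and 3, those of Sycp2, Sycp3 and Hormad1 were lower in all 3 cKO libraries with 58.4% to 82.0% left, as 92.7% of such promoters over all genes were lower in all 3, and that of Stag3 was unmethylated throughout.

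Most of the cytosines read in these genes, 98 of them, lay from 250 bp before to 500 bp after the 5′ end of coding transcripts. The stretches below are from the GRCm38 reference, 5′ to 3′ on the strand of the gene. Capitals mark the CpGs with a cytosine read in all 6 libraries. Distances count the first base of the gene as 0. The first is the sequence directly upstream of Sycp1 (chr3:102936101-102936160, minus strand), and the second lies in an intron near its 5′ end (chr3:102935875-102935940, minus strand). They are shown because the cKO mean was not below that of control replicates 2 and 3 at 9 of the 14 cytosines of this promoter.
Sycp1 upstream: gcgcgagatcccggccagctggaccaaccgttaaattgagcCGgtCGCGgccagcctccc
Sycp1 intron: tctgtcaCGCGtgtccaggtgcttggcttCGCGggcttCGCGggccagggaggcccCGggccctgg
The Sycp2 stretch, in an intron (chr2:178407425-178407510, minus strand), has all 12 of its CpGs read and was at 75.9% in cKOs and 86.1% in control replicates 2 and 3.
Sycp2 intron: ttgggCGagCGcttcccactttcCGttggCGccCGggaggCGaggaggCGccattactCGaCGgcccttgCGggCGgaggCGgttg
The Hormad1 stretch lies directly upstream of the gene (chr3:95559552-95559676, plus strand) and contains both motifs described further on. The Sycp3 stretch is intronic (chr10:88459834-88459887, plus strand), and comes from a methylated promoter that was lower in each cKO library than in any control library. Over all genes this was so at 14.6% of promoters with a control mean of 25% or more.
Hormad1 upstream: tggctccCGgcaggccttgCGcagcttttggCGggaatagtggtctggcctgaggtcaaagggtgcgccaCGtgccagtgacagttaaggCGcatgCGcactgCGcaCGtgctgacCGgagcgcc
Sycp3 intron: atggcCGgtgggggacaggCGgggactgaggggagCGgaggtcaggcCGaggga
For Smc1b, an unmethylated stretch upstream (chr15:85131994-85132077, minus strand), and a methylated one downstream, in an intron (chr15:85131620-85131819, minus strand), are shown together because both belong to 1 promoter. In the downstream stretch the cytosines up to 179 bp averaged 18.7% to 43.4% in control replicates 2 and 3, each below those further on.
Smc1b upstream: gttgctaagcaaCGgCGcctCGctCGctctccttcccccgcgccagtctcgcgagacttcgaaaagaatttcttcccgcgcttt
Smc1b intron: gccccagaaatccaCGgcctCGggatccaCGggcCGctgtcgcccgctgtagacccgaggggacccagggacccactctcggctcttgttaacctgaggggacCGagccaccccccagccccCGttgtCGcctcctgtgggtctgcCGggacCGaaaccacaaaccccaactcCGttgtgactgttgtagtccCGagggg
For Spo11 the stretch lies in an intron (chr2:172980050-172980210, plus strand), outside the promoter as defined but within 500 bp of the 5′ end of its coding transcripts. The last stretch is from an intron deep in Stag3 (chr5:138300295-138300340, plus strand), where levels in cKOs were far below those of control replicates 2 and 3.
Spo11 intron: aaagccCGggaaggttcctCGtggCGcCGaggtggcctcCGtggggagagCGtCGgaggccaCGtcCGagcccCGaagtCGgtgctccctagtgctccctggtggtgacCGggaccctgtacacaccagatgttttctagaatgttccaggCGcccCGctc
Stag3 distal intron: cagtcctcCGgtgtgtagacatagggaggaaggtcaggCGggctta

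The first question was what happened at the genes of the synaptonemal complex. Sycp1 encodes the transverse filament that spans the gap between paired chromosomes (chromosome 3, 102818499 to 102936100, minus strand). Its promoter (102935600 to 102937100, 14 cytosines, 241 to 664 reads per library) was at 74.4%, 76.1% and 68.4% in cKO replicates 1, 2 and 3, against 84.9% and 64.6% in control replicates 2 and 3 and 57.3% in the discordant control. The cKO values lay between those of control replicates 2 and 3, so the groups overlapped. The means were 73.0% ± 4.04 (SD, n = 3) in cKOs and 68.9% ± 14.3 (SD, n = 3) in controls, a difference of 4.04 points, and -1.78 points without the discordant control (moderated quasi-binomial test, q = 0.987 and 0.851). The share left was 97.6%.

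The Sycp1 promoter was not uniform. Its 1 cytosine far upstream, at -599 bp, was at 30.3%, 36.1% and 23.7% in cKOs, against 70.8% and 80.4% in control replicates 2 and 3 and 22.1% in the discordant control, and its 100 bp window was called lower without that library (-45.6 points, q = 5.12e-05) and not with it (-27.7 points, q = 0.353). The 6 cytosines from -19 to 15 bp were at 92.4%, 87.6% and 85.0% in cKOs, against 91.1% and 73.1% in control replicates 2 and 3 and 79.2% in the discordant control. The 7 from 168 to 217 bp, in an intron, were at 78.9%, 77.3% and 70.8% in cKOs, against 86.7% and 50.0% in control replicates 2 and 3 and 64.6% in the discordant control. Of the 14 promoter cytosines, 9 had a cKO mean that was not below the mean of control replicates 2 and 3. The promoter window with most reads, 100 to 199 bp downstream, differed by 12.7 points with all 6 libraries (q = 0.586) and by 12.3 points without the discordant control (q = 0.349). In the body of Sycp1 the picture differed. Its 4 cytosines, all in introns at 49088 bp or more from the 5′ end, were at 52.3%, 39.7% and 40.2% in cKOs, against 91.5% and 85.9% in control replicates 2 and 3 and 40.4% in the discordant control. Those at 49088, 49097 and 70572 bp lie in sequence marked as repeats in the reference, unlike the promoter cytosines. Without the discordant control the body was called lower (-44.6 points, q = 0.000605), and with all 6 libraries the difference of -28.5 points was not called (q = 0.277).

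Sycp2 encodes a protein of the axial elements (chromosome 2, 178345293 to 178407685, minus strand). Its promoter (178407185 to 178408685, 22 cytosines, 459 to 937 reads) was at 75.8%, 68.6% and 68.1% in cKOs, against 87.7% and 85.0% in control replicates 2 and 3 and 72.1% in the discordant control. All cKO libraries were below control replicates 2 and 3, and the discordant control lay among the cKOs. The difference was -10.8 points with all 6 libraries (q = 0.975) and -15.5 points without that library (q = 0.0373), which is under the 25 points asked for, and the share left was 82.0%. Within it, 4 cytosines of the 5′ UTR, 35 to 83 bp downstream, were at 44.5%, 46.5% and 56.9% in cKOs, against 90.8% and 91.7% in control replicates 2 and 3 and 62.5% in the discordant control, and their window was called lower without it (-41.9 points, q = 1.15e-05) and not with it (-32.3 points, q = 0.322). The next 13 cytosines, in the intron printed above, were at 84.3%, 73.0% and 70.4% in cKOs, against 87.8% and 84.4% in control replicates 2 and 3 and 74.1% in the discordant control. The window there, with the most reads of this promoter, differed by -6.08 points (q = 0.356) and by -9.25 points without that library (q = 0.0048), short of 25 points. The 3 body cytosines, 568 to 613 bp downstream, were at 71.1%, 60.6% and 69.8% in cKOs, against 72.4% and 82.7% in control replicates 2 and 3 and 48.2% in the discordant control (difference without it -10.4 points, q = 0.364). With all 6 libraries the body difference was -0.596 points (q = 0.995), and its sign changed when other single libraries were left out.

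Sycp3, the partner of Sycp2 in the axial elements (chromosome 10, 88459569 to 88473236, plus strand), lies inside the span of Chpt1, a gene on the other strand, and the 7 cytosines of its promoter (88458569 to 88460069) are in an intron from 270 to 466 bp downstream. It was at 57.8%, 42.0% and 42.2% in cKOs, against 82.3% and 79.9% in control replicates 2 and 3 and 59.7% in the discordant control, with 149 to 300 reads. Every cKO library was below every control library, as at 14.6% of the 751 promoters over all genes with a control mean of 25% or more. The difference was -26.6 points with all 6 libraries (unadjusted p = 0.0144, q = 0.975 in the quasi-binomial test) and -33.8 points without the discordant control (q = 0.0288), and the share left was 58.4%. With autosomes alone in the fit and without that library, the promoter was called lower (q = 0.0021). The 4 cytosines of the printed stretch were at 56.9%, 57.1% and 49% in cKOs, against 89.2% and 89.1% in control replicates 2 and 3 and 83.9% in the discordant control, which here stood with the other controls. The promoter window with most reads, 332 to 431 bp downstream, differed by -13.9 points (q = 0.416) and by -19.3 points without that library (q = 0.0116). No body cytosine of Sycp3 was read in all 6 libraries.

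Syce1 encodes a protein of the central element (chromosome 7, 140777229 to 140787852, minus strand). Its promoter holds 1 CCGG site and 44 CpGs, and 0 cytosines there were listed in any library. The 5 body cytosines, all intronic, were at 65.3%, 40% and 39.0% in cKOs, against 88.0% and 81.1% in control replicates 2 and 3 and 39.8% in the discordant control. The value of cKO replicate 1 lay above the other two, and all 3 were below control replicates 2 and 3. The body was called lower without the discordant control (-36.5 points, q = 0.00736) and not with it (-21.6 points, q = 0.421).

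Hormad1, a HORMA-domain protein of unsynapsed axes that is needed for normal break formation and pairing (chromosome 3, 95559677 to 95587671, plus strand), had 11 promoter cytosines (95558677 to 95560177, 102 to 227 reads). They were at 40.8%, 52.3% and 52.0% in cKOs, against 66.7% and 82.9% in control replicates 2 and 3 and 41.2% in the discordant control. All cKO libraries were below control replicates 2 and 3, which themselves differed by more than the cKO libraries did. The difference was -15.2 points with all 6 libraries (q = 0.975) and -26.4 points without the discordant control (q = 0.184), with 64.7% left. The window from -176 to -77 bp was at 31.7%, 50.0% and 47.1% in cKOs, against 81.5% and 100% in control replicates 2 and 3 and 54.2% in the discordant control, and was called lower without that library (-47.8 points, q = 0.000814) and not with it (-35.6 points, q = 0.347). The neighbouring window with most reads, -76 to 23 bp, was at 56.2%, 51.4% and 62.7% in cKOs, against 63.0% and 81.1% in control replicates 2 and 3 and 40.5% in the discordant control (-4.78 points, q = 0.669, and -15.3 points, q = 0.0615, without it). The cytosines of both windows lie in the printed stretch.

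**Figure D1:**
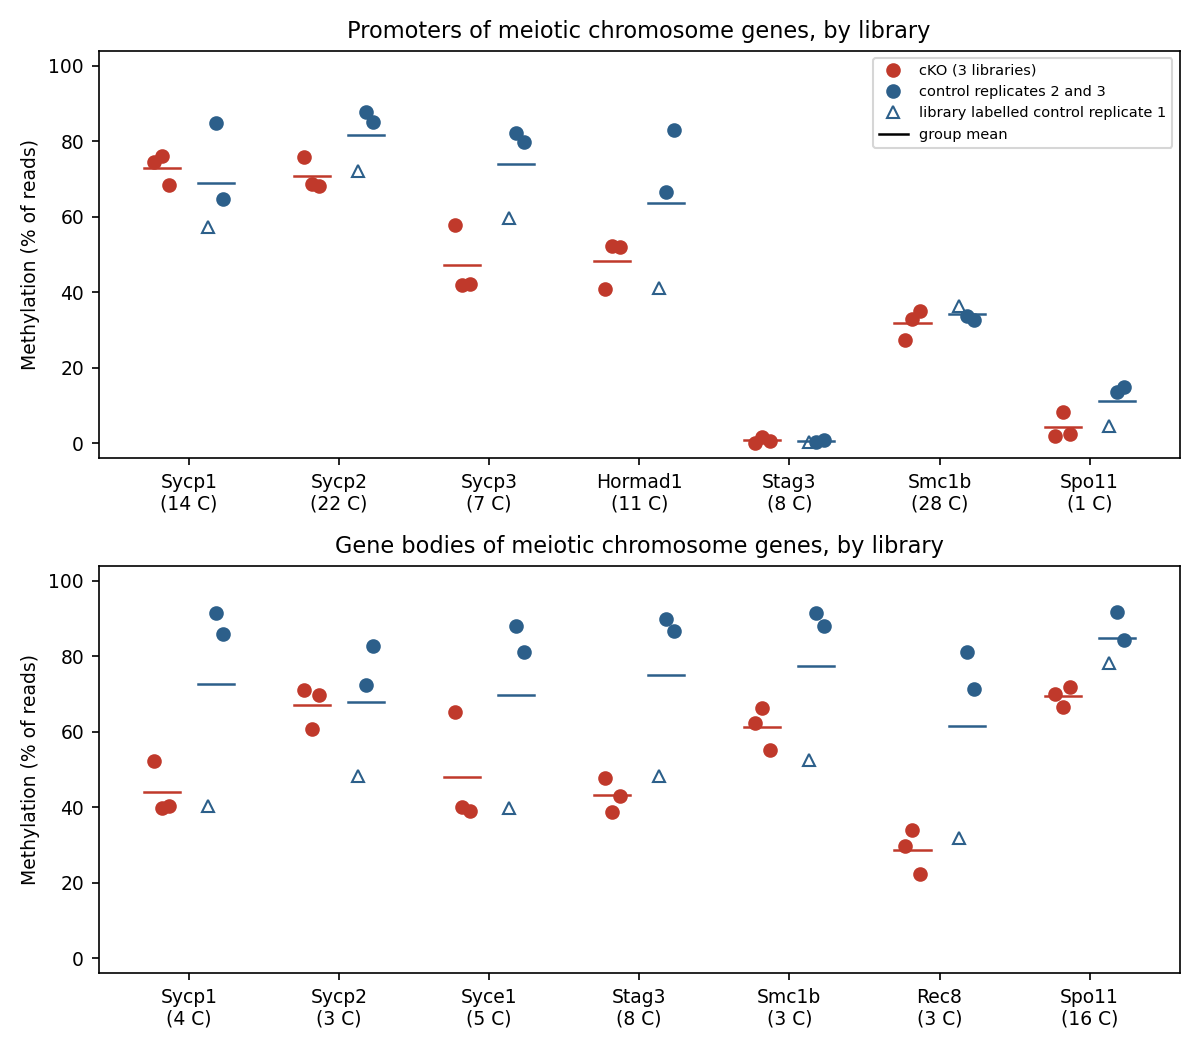
Methylation per library, in percent of reads on the vertical axis, at promoters (top) and bodies (bottom) of the genes (horizontal axis, with the number of cytosines). Points are libraries, cKO in red left of control in blue, open triangles are the discordant control, labelled control replicate 1, and lines are group means. At the Sycp1 promoter the cKO libraries, at 68.4% to 76.1%, lie between control replicates 2 and 3, while at its body they lie at 39.7% to 52.3%, below 91.5% and 85.9%.

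The next question was the meiotic cohesin. Stag3 (chromosome 5, 138280240 to 138312393, plus strand) replaces the mitotic subunits Stag1 and Stag2. Its promoter (138279240 to 138280740) overlaps the start of Gpc2 on the other strand and was unmethylated, at 0%, 1.76% and 0.654% in cKOs, against 0.259% and 0.851% in control replicates 2 and 3 and 0.422% in the discordant control, over 8 cytosines. The 0 of 374 reads in cKO replicate 1 allows a level of up to 0.802% when taken as fewer than 3 reads, and the upper end of its Wilson interval was 1.02%. The difference of 0.293 points was not called (q = 0.975), and with so little methylation in controls a fall could not have been seen. The window with most reads, -439 to -340 bp, was at 0% in all 6 libraries. Its body was methylated. The 8 body cytosines were at 47.6%, 38.8% and 43.0% in cKOs, against 89.9% and 86.6% in control replicates 2 and 3 and 48.2% in the discordant control. The body was called lower without the discordant control (-45.1 points, q = 6.86e-05), with 48.9% left, and not with all 6 libraries (-31.8 points, q = 0.214). The 3 cytosines of the printed distal stretch were at 48.2%, 29.7% and 35.4% in cKOs, against 92.3% and 96.8% in control replicates 2 and 3 and 26.9% in the discordant control.

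Smc1b, the meiotic counterpart of Smc1a (chromosome 15, 85064689 to 85131964, minus strand), shares its upstream sequence with Ribc2 on the other strand. Its promoter (85131464 to 85132964, 28 cytosines, 434 to 1253 reads) was at 27.4%, 32.9% and 35% in cKOs, against 33.7% and 32.7% in control replicates 2 and 3 and 36.4% in the discordant control. The groups overlapped, the difference was -2.49 points (q = 0.975) and -1.44 points without the discordant control (q = 0.916), and the share left was 95.7%. This mean joined unmethylated and methylated sequence. The 11 cytosines from -215 to -89 bp were at 0.282%, 1.66% and 1.94% in cKOs, against 0.366% and 1.8% in control replicates 2 and 3 and 0.575% in the discordant control. The window with most reads, -136 to -37 bp, overlapped them and was at 1.96% or less in all 6 libraries (difference 0.703 points, q = 0.741, and 0.453 points, q = 0.593, without the discordant control). The 9 cytosines from 90 to 179 bp, in a coding exon and an intron, were at 35.7%, 39.6% and 50.6% in cKOs, against 51.9% and 50.6% in control replicates 2 and 3 and 33.6% in the discordant control. The 8 from 249 to 338 bp were at 63.6%, 60.7% and 66.9% in cKOs, against 76.5% and 75.2% in control replicates 2 and 3 and 79.7% in the discordant control. In this last stretch every cKO library was below every control library, by a margin smaller than 25 points. Such stretches were not counted over all genes. With each cytosine of the promoter weighted equally, the difference was -6.18 points. The 3 body cytosines, from 505 to 549 bp, were at 62.2%, 66.4% and 55.2% in cKOs, against 91.4% and 88.1% in control replicates 2 and 3 and 52.5% in the discordant control (-16.1 points, q = 0.684, and -28.5 points without it, q = 0.0661). As a 100 bp window the same 3 cytosines were called lower without it (q = 0.00788) and not with it (q = 0.582).

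Rec8, the meiotic kleisin that closes the cohesin ring (chromosome 14, 55618037 to 55625395, plus strand), had 2 CCGG sites in its promoter and 0 cytosines listed there in any library. Its 3 body cytosines, in a coding exon and an intron from 3226 to 3488 bp, were at 29.6%, 34.0% and 22.2% in cKOs, against 81.1% and 71.4% in control replicates 2 and 3 and 31.8% in the discordant control. They were called lower without the discordant control (-47.7 points, q = 0.00617) and not with it (-32.9 points, q = 0.34). The 37.5% left was the lowest share among the bodies of the 10 genes, on 28 to 81 reads per library.

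For recombination, Spo11, the topoisomerase-like protein that makes the breaks (chromosome 2, 172977700 to 172993576, plus strand), had 1 cytosine in the promoter as defined, at 2.0%, 8.33% and 2.5% in cKOs, against 13.6% and 15.0% in control replicates 2 and 3 and 4.55% in the discordant control, too few for a test. The window that holds it, from 401 to 500 bp, differed by -6.78 points (q = 0.599) and without the discordant control by -10.0 points (q = 0.13). The annotated first base of Spo11 belongs to a noncoding transcript, and coding transcripts start 2142 bp further downstream. Of its 16 body cytosines, 15 lie 214 to 364 bp downstream of that coding start, in the printed intron. They were at 70.9%, 69.8% and 76.5% in cKOs, against 92.4% and 85.1% in control replicates 2 and 3 and 83.3% in the discordant control, with every cKO library below every control library. The same held for the whole body, and for 9.32% of the 9411 bodies over all genes with a control mean of 25% or more. The remaining cytosine, 3993 bp from the coding start, was at 40%, 11.8% and 25.9% in cKOs, against 81.0% and 75% in control replicates 2 and 3 and 30.0% in the discordant control. The whole body differed by -15.3 points with all 6 libraries (q = 0.234) and by -18.6 points without that library (q = 0.00298), under the 25 points asked for. With promoters placed at the start of coding transcripts, a choice made after the values were seen, the Spo11 promoter was at 72.4% in cKOs and 88.8% in control replicates 2 and 3 (-16.4 points, q = 0.0894 without the discordant control, and -14.6 points, q = 0.977, with it).

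Dmc1, the meiotic recombinase (chromosome 15, 79561497 to 79605109, minus strand), was not measured in both groups. In its promoter, with 5 CCGG sites and 73 CpGs, 2 cytosines were listed in cKO replicate 3 alone, with 2 and 0 of 6 reads methylated. In its body 5 cytosines were listed in control replicate 2 alone, and no comparison can be drawn.

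**Figure D2:**
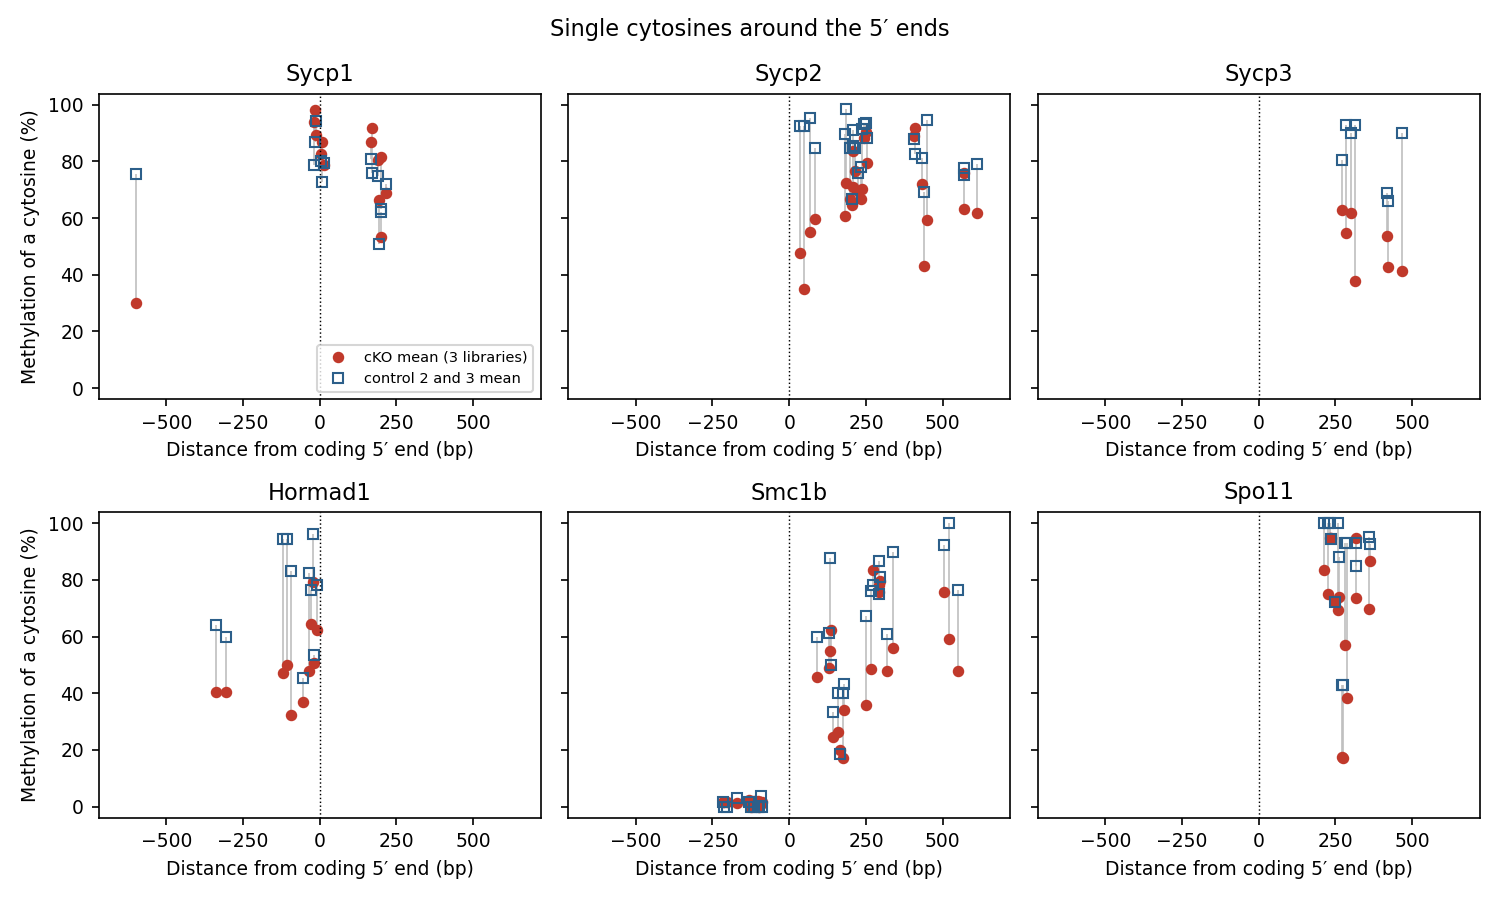
Methylation in percent (vertical axis) of single cytosines against distance in bp from the 5′ end of coding transcripts (horizontal axis, dotted line at 0) for 6 genes. Red circles are means of the 3 cKO libraries, blue squares are means of control replicates 2 and 3, and grey lines join the values of 1 cytosine. Sycp1 shows red above blue at 9 of its 14 promoter cytosines, its cytosine at -599 bp shows 30.0% and 75.6%, and Smc1b changes from about 0 upstream to methylated sequence downstream.

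Counted over the genes, with all 6 libraries 0 of the 6 promoters tested and 0 of the 7 bodies were called, and over all genes 0 of 11787 promoters (0%) and 0 of 13394 bodies (0%). An unadjusted p under 0.05 in that quasi-binomial test was given to 2 of the 6 promoters, Sycp2 and Sycp3, and to 2.21% of all promoters. Where the mean of the controls was 25% or more, it was given to 2 of 5 here and to 29.7% of all 751. It was given to 0 of the 7 bodies, to 21.9% of all bodies and to 29.7% of the 9411 bodies with such a control mean. The limma test also called 0 promoters and 0 bodies. A plain binomial test, with reads in place of replicates, called the Sycp3 promoter and the bodies of Sycp1, Stag3 and Rec8, along with 3.16% of all promoters and 35.9% of all bodies. Every cKO library lay below every control library at 1 of the 5 promoters, Sycp3, and at 2 of the 7 bodies, Stag3 and Spo11. Over all genes this was so at 14.6% of the 751 promoters and 9.32% of the 9411 bodies.

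Without the discordant control, 95 promoters were called lower, which is 0.806% of all promoters and 11.5% of the 825 that stood at 25% or more in control replicates 2 and 3 and so could fall by 25 points. Of the meiotic chromosome genes, 5 promoters could fall and 0 were called. With autosomes alone, 52.4% of 797 such promoters were called, and 1 of the 5, Sycp3. All cKO libraries lay below both controls at 92.7% of the 825 promoters and at 3 of the 5, namely Sycp2, Sycp3 and Hormad1. The exceptions were Sycp1 and Smc1b. Among bodies, 57.7% of all were called lower and 77.3% of the 10007 that could fall, against 4 of 7 here, Sycp1, Syce1, Stag3 and Rec8. All 7 bodies had each cKO library below both controls, as did 98.5% of the 10007.

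In 100 bp windows the genes had 47 windows, of which 0 were called with all 6 libraries, as over all 285466 windows (0%). An unadjusted p under 0.05 was given to 7 of the 47 and to 15.2% of all windows. Without the discordant control, 43.8% of all windows were lower and 67.0% of those that could fall, while 17 of the 47 were lower. These 17 were 5 of the 18 promoter windows that could fall and 12 of the 21 body windows.

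The median difference over the 5 promoters that could fall was -15.5 points without the discordant control, against -38.7 points over all 825, and the median share left was 82.0% against 41.9%. Shares left at least as high as that of Sycp1 were seen at 1.09% of the 825 promoters, as high as Smc1b at 1.33%, Sycp2 at 4.0%, Hormad1 at 11.6% and Sycp3 at 17.5%. The Smc1b share pools unmethylated and methylated stretches whose portion of the reads differed between libraries. Its methylated stretches averaged 41.9% and 63.7% in cKOs, against 51.3% and 75.8% in control replicates 2 and 3. The median over the 7 bodies was -36.5 points, against -39.3 points over all 10007, with 56.8% and 41.1% left. The highest shares among these bodies were 86.6% at Sycp2, 78.8% at Spo11 and 68.2% at Smc1b. Nearly all cytosines of those bodies lay 214 to 613 bp from the coding 5′ end. Since the genes were named with earlier results of these data known, and since features were kept here by their level in control replicates 2 and 3, these are descriptions with no test.

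**Figure D3:**
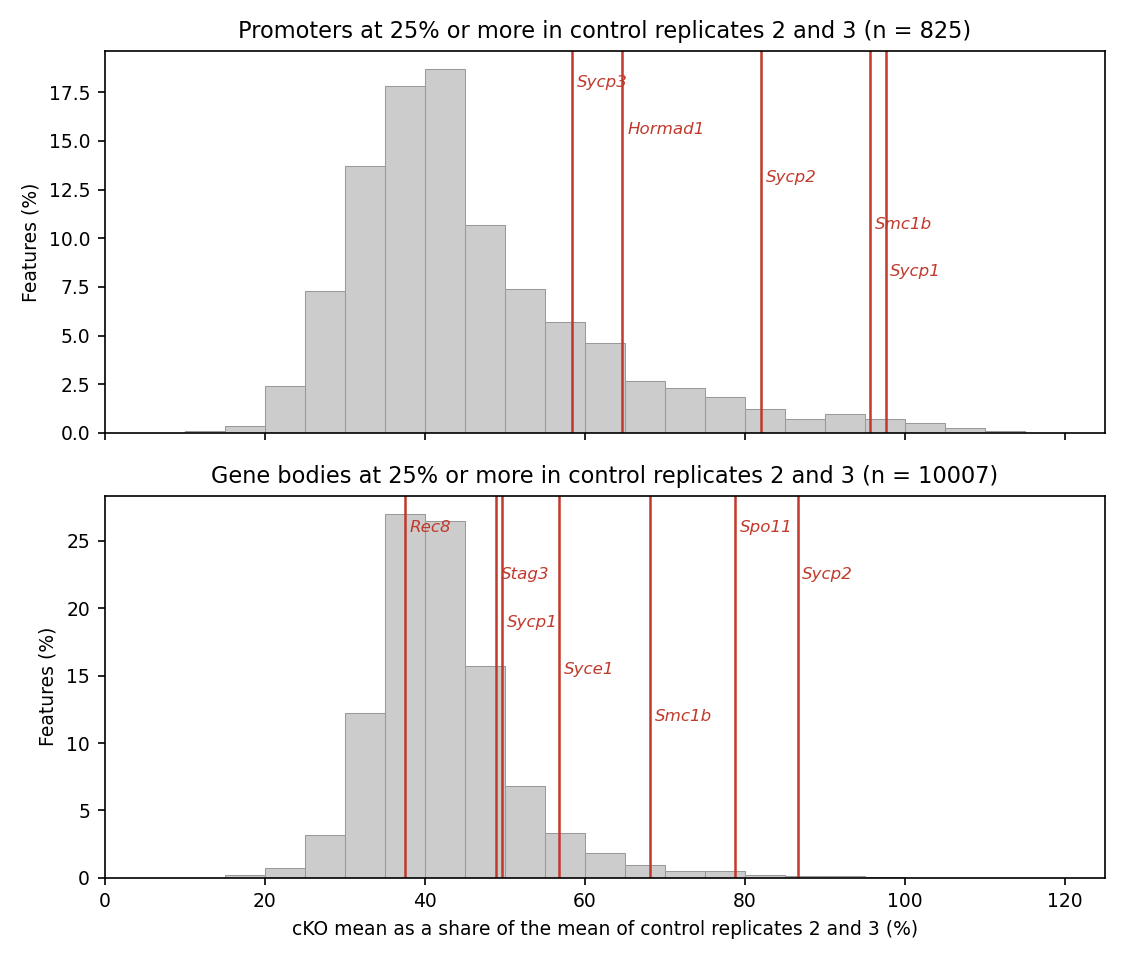
Distribution of the share left, the cKO mean in percent of the mean of control replicates 2 and 3 (horizontal axis), over promoters (top) and bodies (bottom) at 25% or more in those controls. Grey bars give the percent of features in bins of 5 points (vertical axis), and red lines mark the meiotic chromosome genes. The promoter lines run from 58.4% (Sycp3) to 97.6% (Sycp1), against a median of 41.9% over all such promoters, and the body lines from 37.5% (Rec8) to 86.6% (Sycp2).

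Promoter and body could be set against each other within a library in 4 genes. This was not done for other genes, so how often they show such a contrast is not known. At Sycp1 the promoter minus the body was 22.2, 36.4 and 28.2 points in cKOs, against -6.62 and -21.3 points in control replicates 2 and 3 and 16.9 points in the discordant control. All cKO values were above all control values, with a difference of 32.6 points (two-sided exact permutation test, p = 0.1, the smallest possible with 3 against 3). With each cytosine weighted equally the groups overlapped, at 19.5, 43.1 and 37.7 points in cKOs, against -6.17 and -25.4 points in control replicates 2 and 3 and 23.6 points in the discordant control (exact p = 0.2). At Stag3, whose promoter is unmethylated, the values were -47.6, -37.0 and -42.4 points in cKOs, against -89.6 and -85.8 points in control replicates 2 and 3 and -47.8 points in the discordant control (exact p = 0.1), with a promoter level of at most 1.76% in each library. The Stag3 values are therefore close to its body levels with the sign changed, and the test repeats the body comparison. With equal weighting these groups overlapped too (exact p = 0.3). Smc1b (difference 13.6 points, exact p = 0.4) and Sycp2 (-10.2 points, exact p = 0.3) overlapped between groups. Without the discordant control the differences were 42.8 points at Sycp1, 45.4 at Stag3, 27.1 at Smc1b and -5.14 at Sycp2 (exact p = 0.2, 0.2, 0.2 and 0.6, where 0.2 is the smallest possible).

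The cytosines were also grouped by distance from the coding 5′ end. Of 98 cytosines of these genes from -250 to 500 bp, 75 stood at 50% or more in control replicates 2 and 3. These 75 averaged 69.2%, 65.5% and 67.8% in cKOs, against a mean of 82.6% in control replicates 2 and 3 and 71.9% in the discordant control. The share left was 81.7%, and 32.0% of them were lower by 25 points or more. Over all protein-coding genes the 3563 such cytosines averaged 40.4% in cKOs and 80.6% in those controls, with 50.1% left and 79.9% lower by 25 points or more. Beyond 2000 bp the 17 cytosines of these genes averaged 38.1% in cKOs and 86.4% in control replicates 2 and 3, with 44.1% left, near the 42.7% over all genes. The 9 cytosines beyond 500 and up to 2000 bp had 73.1% left, against 42.5% over all genes, and the 3 cytosines further upstream, down to -1000 bp, had 55.7%, against 45.1%. The cytosines of 1 gene share fragments and libraries and are not independent, those of all genes include the members, and the division by distance was made after the values were seen.

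**Figure D4:**
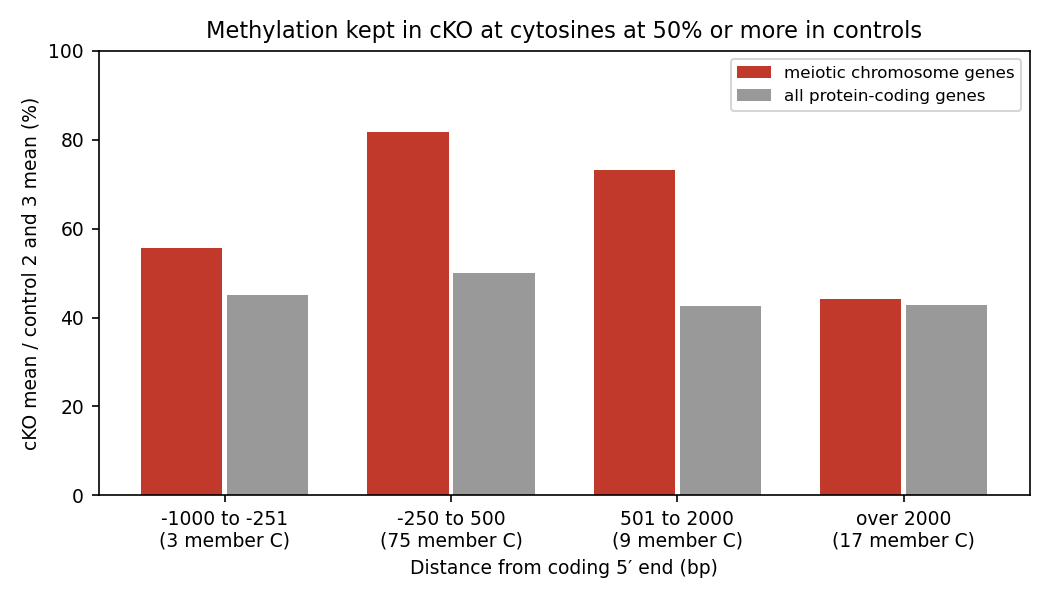
The cKO mean as a percent of the mean of control replicates 2 and 3 (vertical axis) for cytosines at 50% or more in those controls, by distance from the coding 5′ end in bp (horizontal axis, with the number of cytosines of the meiotic chromosome genes). Red bars are the meiotic chromosome genes and grey bars all protein-coding genes. The bars stand at 81.7% and 50.1% from -250 to 500 bp and at 44.1% and 42.7% beyond 2000 bp.

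Sequence around the 5′ ends, which the choice of genes did not use, differed among the genes. CpG density was taken as the observed number of CpGs over the number expected from base composition in 250 bp before to 50 bp after the 5′ end. It was 0.874 at Sycp1, 1.08 at Smc1b, 0.713 at Hormad1 and 0.625 at Sycp3, and 0.383 at Sycp2. Among promoters that could fall, the 142 with a ratio of 0.6 or more had a median of 57.1% left (quartiles 42.8% and 73.4%), and the 340 from 0.2 to 0.4 had 40.1% (34.5% and 46.6%). Sycp1 and Smc1b, and Sycp2 in its own class, lay above the upper quartile of promoters of like density, whereas Hormad1 and Sycp3 lay inside the quartiles. For Smc1b the pooled promoter was used, with its unmethylated part. Its methylated stretches differed by -9.31 and -12.1 points from control replicates 2 and 3.

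In the same 300 bp around the coding 5′ end, both strands were searched for CACGTG, the E-box read by dimers of Max, and for GCGGGAA, a site of E2F factors. Max and E2f6 belong to a Polycomb complex that represses germline genes in other mouse cells. CACGTG was found at 3 of the 10 genes and at 7.72% of 21853 promoters. It stood at -94 bp in Sycp1, at -46 and -25 bp in Sycp3 and at -57 and -20 bp in Hormad1. GCGGGAA was also found at 3 of the 10, and at 5.83% of all promoters, at -129 bp in Sycp3, -95 bp in Hormad1 and, on the opposite strand, from -41 to -35 bp in Smc1b. Hormad1's sites lie in its printed stretch, as does that of Smc1b. These are matches of letters, and binding was not measured.

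Other meiotic genes were taken from lists chosen with earlier results known. Of 20 further genes listed under synaptonemal complex and axis, not all of which encode parts of these structures, 12 promoters were measured. Of these, 2 could fall, with a median of 48.7% left, and 0 were called with or without the discordant control. Hormad2, the relative of Hormad1, was at 34.9%, 37.3% and 35% in cKOs, against 66.7% and 55.4% in control replicates 2 and 3 and 25.4% in the discordant control, and Sycp2l, the relative of Sycp2, averaged 11.5% in cKOs and 29.7% in control replicates 2 and 3. Ccnb1ip1 averaged 2.32% in cKOs and 0.452% in those controls, and its groups overlapped. Of 24 recombination genes, 18 were measured, 6 could fall and 0 were called, with a median of 61.3% left. Ankrd31 averaged 58.0% in cKOs and 92.4% in control replicates 2 and 3, Msh4, a MutS homologue of crossover formation, 46.9% and 79.7%, and Mcmdc2 20.8% and 27.4%. In the discordant control they were at 59.8%, 48.2% and 21.4%. Mcmdc2 overlapped between groups, at 24.6%, 20.5% and 17.3% in cKOs, against 21.8% and 33.0% in control replicates 2 and 3. Of 10 genes of germline identity and meiotic entry, 5 were measured, 4 could fall and 0 were called, with a median of 81.7% left. Asz1 averaged 59.1% in cKOs and 91.4% in control replicates 2 and 3, Mael 67.4% and 87.8%, and Ddx4, an RNA helicase of germ cells, 66.9% and 77.1%. The discordant control was at 48.5%, 71.3% and 73.9% there. Ddx4 overlapped between groups, at 70.9%, 52.8% and 77.1% in cKOs, against 82.1% and 72.1% in control replicates 2 and 3. Over all promoters that could fall, 11.5% were called without the discordant control and 0% with all 6 libraries. Counts of 0 among so few promoters cannot be told apart from these shares. Bodies of these 3 lists were called lower without the discordant control in 9 of 14, 9 of 13 and 4 of 6 measured, beside 57.7% of all bodies.

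The mitotic counterparts had little promoter methylation to lose. Of 16 measured, 0 could fall. Rad21, the mitotic kleisin set against Rec8, averaged 1.09% in cKOs and 1.22% in control replicates 2 and 3. Top2b averaged 1.54% in cKOs and 0.529% in those controls, and Wapl 1.21% and 0.13%. The X-linked genes Smc1a and Stag2 averaged 8.91% and 12.1% in cKOs, against 15.2% and 16.6% in those controls, but Stag2 was at 18.2%, 0.402% and 17.8% in cKO replicates 1, 2 and 3, against 32.3% and 0.905% in control replicates 2 and 3, and Smc1a followed the same libraries. Stag1 was not among the promoters measured. At bodies of the mitotic counterparts 9 of 16 were called lower without the discordant control, beside the same 57.7%.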

How the data were processed

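The data were 3 cKO and 3 control ox-RRBS libraries of cortex. The authors mapped reads to GRCm38 with Genomatix software without mismatches and excluded thinly covered positions, and the submitters' notes name methylKit. For each cytosine the deposited files hold a count of reads (coverage) and the percent that were C or T, unpooled and not normalised between libraries. Methylated reads were recovered from both. The lowest coverage in any file was 6.

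Reads were summed over promoters and bodies of protein-coding genes (GENCODE M21) with at least 3 cytosines, and over windows of 100 bp. Group terms of binomial models were tested with a quasi-binomial F test whose dispersion was moderated by the empirical Bayes method of limma 3.58.1, coded in Python 3.11.15 with scipy 1.17.1 and tested on simulated data. Annotations came from GENCODE and printed sequences from the GRCm38 RefSeq genome. Prior distributions were fitted on features with intermediate methylation.

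Alternatives were coverage minima of 10 and 20, at least 5 cytosines, another promoter width, other tests and thresholds, autosomes only, replicate blocking, equal weighting of cytosines and omission of each library. Promoters at coding 5′ ends were added after the values were seen. The members and lists were chosen with earlier results of these data known. All 10 genes were named, with the promoter window of most reads. From every other list at most 3 promoters were named, those with the largest absolute difference among promoters with 5 cytosines and 50 reads per library, besides Smc1a, Stag1, Stag2 and Rad21 where measured. A further result under this rule is not reported here. Other windows and stretches were singled out after their values were seen.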

Additional observations from a re-analysis of the deposited data

How the results depend on the processing

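With all 6 libraries, calls of promoters and bodies stayed at 0, over all genes and over the 10, under coverage minima of 10 and 20 reads, limma, q under 0.05, autosomes only, at least 5 cytosines, a promoter of 500 bp on either side and promoters at the coding 5′ end. The fit with a replicate block also called 0 promoters, 0 bodies and 0 windows. Deviations of libraries with the same number correlated at -0.0161, 0.0541 and -0.147, and those of libraries with different numbers at -0.168 to 0.197. Whether libraries with the same number are paired cannot be told from these values. The plain binomial test called 372 promoters (1 of the 10 genes) and 4803 bodies (3). Leaving out 1 library gave 0 to 95 promoters (0 of the 10 genes), 0 to 7735 bodies and 0 to 4 bodies of the 10 genes, the non-zero counts being those without control replicate 1. Windows were refitted without that library only, which gave 125025 called, 125019 lower and 6 higher. Without it, autosomes alone gave 418 promoters (1 of the 10) and 7617 bodies (4), and coding 5′ ends gave 58 promoters and 7811 bodies (4), with a median body difference of -40.6 points over 6 bodies. That median was -25.1 at coding 5′ ends with all 6 libraries and, at annotated gene ends, -36.5 without control replicate 1 and -21.6 with all 6. The Sycp1 promoter difference was -1.78 points in each of the 3 fits without control replicate 1, against 4.04, and ran up to 12 when other libraries were left out. The Sycp2 body difference was 1.71, 6.87 and 2.66 points without control replicate 2, control replicate 3 and cKO replicate 2, against -0.596, with a range of -10.4 to 6.87 over the libraries left out, and the Stag3 promoter difference ran from -0.184, without cKO replicate 2, to 0.695. With cytosines weighted equally the Stag3 promoter differed by 1.04 and the Smc1b promoter by -6.18 points. The cause of these changes was not tested. Promoters and bodies called have no value under equal weighting of cytosines, which gives levels only. Bodies with 3 or 4 cytosines rest on 28 to 184 reads per library, summed over cytosines, with intervals of a single library up to 34.0 points wide.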

Other observations

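In the Spo11 intron 2 neighbouring cytosines, 2413 and 2417 bp from the first base of the gene and read on the minus strand, were at 52.6% and 36.8% in cKO replicate 1, 0% and 14.3% in cKO replicate 2 and 0% and 0% in cKO replicate 3, against 85.7% and 85.7% in control replicate 2, 0% and 0% in control replicate 3 and 0% and 0% in the library labelled control replicate 1. The next cytosines, at 2424 and 2430 bp, were at 63.2% and 31.6%, 28.6% and 33.3%, and 80.0% and 50.0% in cKO replicates 1, 2 and 3, against 85.7% and 85.7% in control replicate 2, 100% and 100% in control replicate 3 and 87.5% and 50.0% in the library labelled control replicate 1. Each value rests on 6 to 19 reads.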
